A study of Mus musculus with 2 samples.

Results

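The genes described here build, or load cargo into, the COPII vesicles that carry apoB lipoproteins and other secreted proteins out of the endoplasmic reticulum (ER) of hepatocytes. They were chosen by name: the GTPases Sar1a and Sar1b, the inner coat subunits Sec23a, Sec23b, Sec24a and Sec24d, the outer coat subunit Sec31a, and the cargo receptors Surf4, Lman1 and Mia3. Matching by symbol or Entrez ID gave all 10 genes, of 18193 genes on the array, with 23 probe sets of 45101. Hepatic RNA was measured in L-Lpcat3 KO mice (Lpcat3fl/fl Albumin-Cre) and, as controls, in Flox/Flox mice (Lpcat3fl/fl without Cre), which were otherwise alike: male, 12 weeks old, on chow and fasted for 6 hr. Both groups carry the same homozygous floxed allele, with loxP sites around exon 3, on a C57BL/6 background. Cre is driven by the albumin promoter, so that hepatocytes lose Lpcat3 and other liver cells keep it. Because the controls lacked Cre, effects of Cre and of the loss of Lpcat3 cannot be told apart. RNA of 5 livers was pooled per genotype and hybridized to 1 Affymetrix mouse whole-genome array, so there are no replicates, no p-value or standard error can be given, and each ratio below is a single value.

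COPII vesicles form when Sar1, loaded with GTP by Preb, inserts into the ER membrane and recruits the Sec23 and Sec24 pair. Sec24 binds cargo or its receptors, Sec23 triggers GTP hydrolysis by Sar1, and a cage of Sec13 and Sec31 bends the membrane into a bud. ApoB lipoproteins are large and soluble inside the ER lumen, and their export depends on Sar1b and on receptors that span the membrane: mutations of human SAR1B cause chylomicron retention disease, and mice that lack Surf4 in liver have very low plasma lipids. Lpcat3, which places polyunsaturated chains into phosphatidylcholine, resides in the same membrane. The comparison asks whether hepatic transcripts of the export machinery differ when hepatocytes lack this enzyme.

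The promoters of the members were searched for short elements of the unfolded protein response, the pathway that adjusts secretory capacity. The E-box and the CRE were searched beside them and are not counted as such elements here. RefSeq windows (GRCm38.p6) from 250 bases before to 50 bases after the start site were found for 9 of the 10 genes, as 11 windows; Lman1 had none in the table. The UPRE core TGACGTG, read by XBP1 and ATF6, was searched on both strands. It occurred in 3 of the 11 windows, those of Mia3, Sec24d and Sec23a, and in 2.01% of all 32851 windows. The E-box CACGTG was found in 1 member window, that of Sar1a, and in 7.15% of all windows. The full ER stress element (CCAAT and CCACG 9 bases apart) was in no member window and in 0.119% of all. ERSE-II (ATTGG and CCACG 1 base apart, 0.0365% of all windows) and the CRE TGACGTCA (1.79%) were in no member window either. No member window held more than 1 of these motifs, so the matches do not overlap. They describe letters in a window and do not show binding.

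The stretches with these matches are printed 5′ to 3′ on the strand of the gene, with the match in capitals. In Mia3 (chr1:183369605-183369691, minus strand) the core lies 86 to 80 bases before the start site. In Sec24d (chr3:123267430-123267495, plus strand) it lies 26 to 20 bases before it. In Sec23a (chr12:59011995-59012021, minus strand) it covers bases 7 to 13 of the transcript. The E-box of Sar1a (chr10:61680238-61680284, plus strand) ends 2 bases before the start site.
Mia3: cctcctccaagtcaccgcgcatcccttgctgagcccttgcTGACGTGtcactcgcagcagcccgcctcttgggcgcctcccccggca
Sec24d: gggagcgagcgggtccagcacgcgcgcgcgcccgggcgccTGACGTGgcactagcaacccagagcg
Sec23a: tcctccccttTGACGTGgcagaggcgg
Sar1a: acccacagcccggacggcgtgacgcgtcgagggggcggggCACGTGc

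Signals are MAS5 values on a linear scale, 1 per probe set and array, and both arrays had been scaled to the same trimmed mean. Values below the median of all signals, 76.4, were raised to that floor, and log2 ratios are L-Lpcat3 KO over Flox/Flox. A ratio with 1 pool at the floor is a lower bound. The deleted gene has 1 probe set, with a signal of 1305 in L-Lpcat3 KO and 3310 in Flox/Flox (log2 ratio -1.34); its position relative to exon 3 was not analysed here, so it is a weak check of the labels. The ratio of 3′ to 5′ control signals, a measure of RNA integrity, was 0.851 in L-Lpcat3 KO and 0.866 in Flox/Flox for Gapdh, and for Actb it was 2.32 in L-Lpcat3 KO and 2.34 in Flox/Flox. Hepatocyte markers had a median log2 ratio of -0.04 over 8 genes, with summed signals of 227582 in L-Lpcat3 KO and 231674 in Flox/Flox. By brightest probe set, all 11 Kupffer cell and macrophage markers were lower in L-Lpcat3 KO (median -0.26, summed signals 10842 in L-Lpcat3 KO and 12451 in Flox/Flox). The 3 probe sets of C1qb ran from -0.43 to 0.16. Of 9 endothelial markers 7 were higher by brightest probe set and 2 lower (median 0.22, summed signals 9790 in L-Lpcat3 KO and 8429 in Flox/Flox). The probe sets of Fcgr2b above the floor in both pools ran from -0.12 to 0.51, and those of Lyve1 from 0.00 to 0.42. Of 8 stellate cell markers 7 were measured (median 0.05, summed signals 10357 in L-Lpcat3 KO and 10558 in Flox/Flox). Of these, 5 had ratios above 0 and 2 below, and Col3a1 was the lowest (1151 in L-Lpcat3 KO and 1758 in Flox/Flox, log2 ratio -0.61). Bile duct, lymphocyte and neutrophil markers were near the floor, with summed signals of 366, 156 and 230 in L-Lpcat3 KO and of 330, 228 and 272 in Flox/Flox. Of 3 measured bile duct markers 2 had ratios above 0, and Sox9 was lower (77.6 in L-Lpcat3 KO and 161.7 in Flox/Flox). The COPII genes are used by all of these cells, and the part of cell composition in their ratios was not tested. In whole liver, fewer cells of a type and less RNA per cell cannot be told apart.

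The export machinery as a whole differed little between the pools. None of its 23 probe sets was 1.5-fold apart in either direction, while 8.5% of the 24183 probe sets above the floor in at least 1 pool were. Most member probe sets were bright, and brightness lowers that share: among the 10815 probe sets at or above the 75th percentile of signals (387) in both pools, 1.66% were 1.5-fold apart, and none of the 18 member probe sets in this class was. A count of 0 among so few probe sets is close to that background and is no result particular to these genes. Of the 23 ratios, 12 were above 0 and 11 below, with a median of 0.01 against 0.01 for all 24183. After median centring, which moved the median of all genes to -0.07, 8 were above 0 and 15 below. Of the 18 bright ones 11 were below 0, against 51.6% of all bright probe sets, and 13 lay within 1.1-fold, a size chosen after their values were seen, against 57.5% of all bright probe sets.

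**Figure D1:**
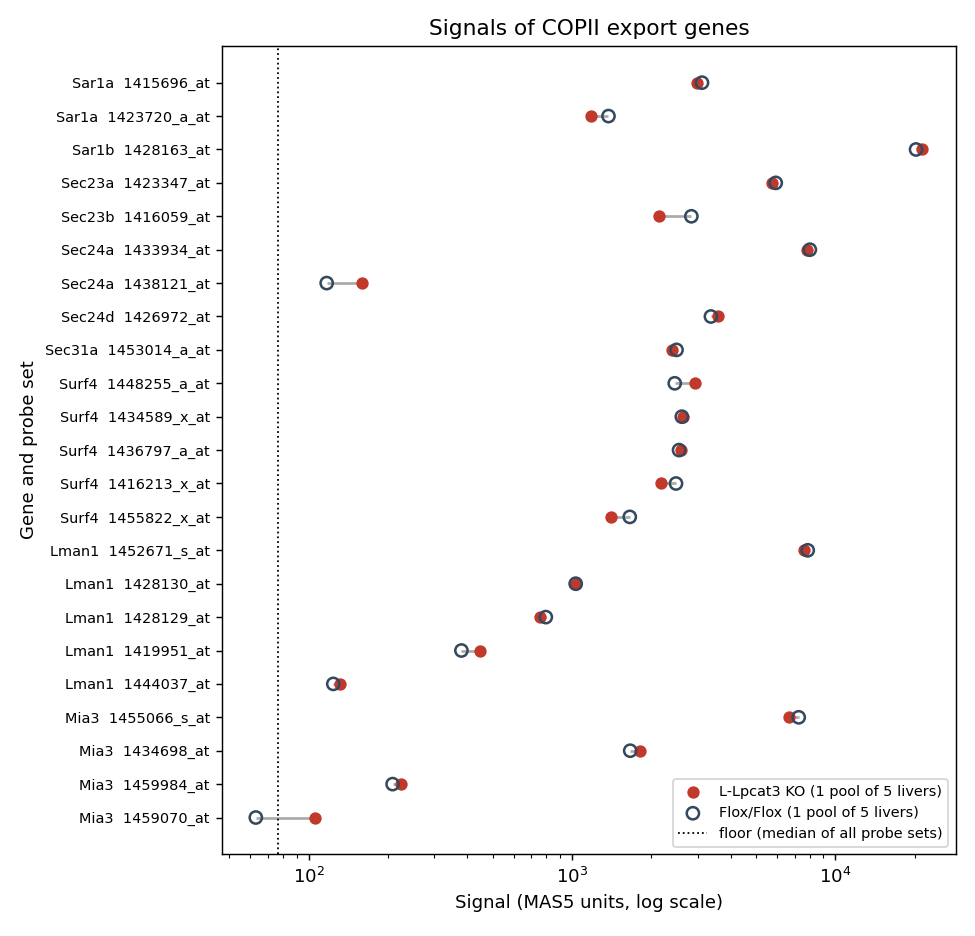
Signal of each of the 23 probe sets (x axis, MAS5 units, log scale) in L-Lpcat3 KO (filled) and Flox/Flox (open), 1 pool each; rows are probe sets by gene (y axis), and the dotted line is the floor of 76.4. The paired points nearly coincide for most rows, the gap is widest for a dim Mia3 probe set (106 in L-Lpcat3 KO and 63.0 in Flox/Flox), and distances between rows have no meaning because probe sets differ in brightness for the same RNA.

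By gene, taking the brightest probe set, none of the 10 was 1.5-fold apart, against 7.22% of 12084 genes measured and 1.48% of the 6817 genes that are bright in both pools. The gene ratios ran from -0.41 for Sec23b to 0.25 for Surf4. Their median was -0.05, against 0.00 over all 12084 genes, with 3 genes above 0 and 7 below (49.2% of all genes were below 0). Of the 10 genes, 5 have more than 1 probe set, which read the same pools again and are not replicates of the genotype. Over the 17 probe sets of these 5 genes above the floor in both pools, the pooled SD within a gene was 0.18 on the log2 scale, against 0.28 over 4495 genes with several. In 4 of the 5 genes the probe sets disagreed in sign, as they did in 2598 of the 4495. All ratios of the members other than that of Sec23b and of the dimmest probe sets of Sec24a and Mia3 were at most 0.25 in size.

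The GTPases that start coat assembly were close to equal. Sar1b, the form that lipoprotein export requires in human intestine, has 1 probe set, with 21353 in L-Lpcat3 KO and 20238 in Flox/Flox (1.06-fold higher, log2 ratio 0.08). Sar1a, its paralog, had 2974 in L-Lpcat3 KO and 3116 in Flox/Flox by its brightest probe set (log2 ratio -0.07). Its other probe set, designed from the same source sequence, had 1181 in L-Lpcat3 KO and 1376 in Flox/Flox (log2 ratio -0.22). Sar1a was thus slightly lower in both of its readings and Sar1b slightly higher in its only one, and whether the paralogs differ in response cannot be tested with 1 pool per genotype. After median centring of the arrays the Sar1b ratio was -0.0016. Preb, the exchange factor that loads Sar1 with GTP, had log2 ratios of -0.18, -0.16 and -0.01 in its 3 probe sets, with signals of 4491 in L-Lpcat3 KO and 5098 in Flox/Flox for the brightest.

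Among inner coat subunits, Sec23b stood lowest. Its single probe set had 2143 in L-Lpcat3 KO and 2839 in Flox/Flox, 1.33-fold lower (log2 ratio -0.41). Ratios as low or lower were found for 3.04% of the 10815 bright probe sets, that is, for 329 of them. Among probe sets with signals above 1636, the class of Sec23b, the central 90% had ratios from -0.27 to 0.25. The Sec23b ratio lies below that range. The ratio lay between -0.49 and -0.40 in 7 alternatives of scaling and floor. Sec23B is the subunit mutated in human congenital dyserythropoietic anemia type II, and with no second probe set its lower signal is a single reading. Its paralog Sec23a had 5747 in L-Lpcat3 KO and 5936 in Flox/Flox (log2 ratio -0.05). Each protein can fill the Sec23 place of the coat, and whether either differs between genotypes cannot be tested with 1 pool each.

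The cargo-binding Sec24 subunits were near equal in their bright readings. Sec24a, 1 of the Sec24 forms that select cargo for the vesicle, had 7823 in L-Lpcat3 KO and 7998 in Flox/Flox (log2 ratio -0.03). A dim second probe set of Sec24a had 159 in L-Lpcat3 KO and 117 in Flox/Flox (log2 ratio 0.44). Of all probe sets between the floor and a signal of 387, the central 90% had ratios from -0.60 to 0.66, so the dim reading lies inside the usual spread at such signals. Sec24d had 3592 in L-Lpcat3 KO and 3368 in Flox/Flox (log2 ratio 0.09). Sec24a and Sar1b are neighbouring genes on chromosome 11, with start sites 6829 bases apart in the RefSeq annotation, and their brightest log2 ratios were -0.03 and 0.08. Of the Sec24 forms outside the chosen group, Sec24c had a log2 ratio of -0.17 (3438 in L-Lpcat3 KO and 3857 in Flox/Flox) and Sec24b of 0.03.

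The outer cage had nearly equal signals in both pools. Sec31a had 2396 in L-Lpcat3 KO and 2494 in Flox/Flox (log2 ratio -0.06). Sec13, the other cage subunit, had 1977 in L-Lpcat3 KO and 1895 in Flox/Flox (log2 ratio 0.06). Sec31b was not analysed here. Klhl12, the adaptor through which ubiquitin is added to Sec31 for large carriers, had a log2 ratio of -0.13, and its co-adaptors Pef1 and Pdcd6 had -0.03 and -0.05.

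**Figure D2:**
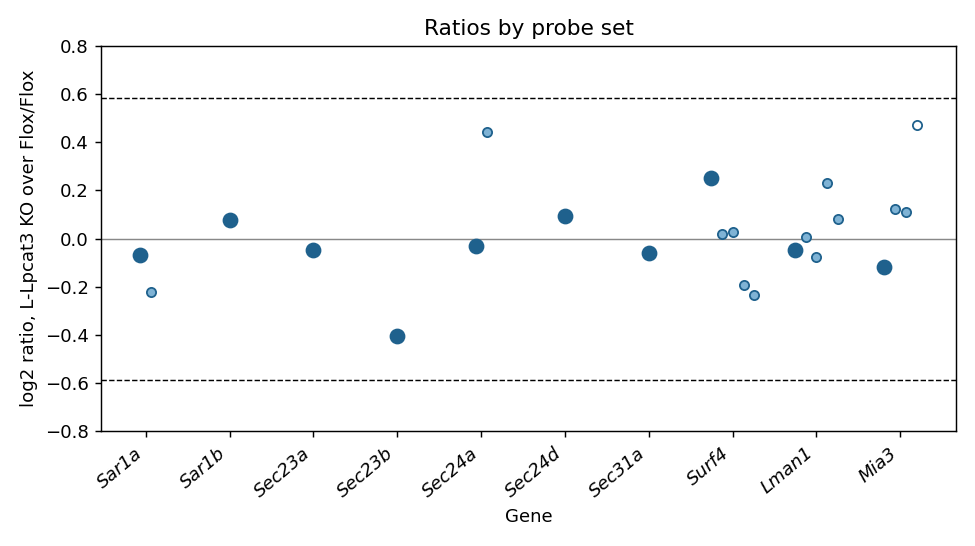
Ratio of the L-Lpcat3 KO signal to the Flox/Flox signal (log2, y axis) of each probe set of the 10 genes (x axis); the large point of each gene is its brightest probe set, small points are the others, the open point has Flox/Flox at the floor, and dashed lines mark 1.5-fold. No point reaches a dashed line, Sec23b is lowest at -0.41, and the probe sets of Surf4 spread on both sides of 0, from -0.24 to 0.25.

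Surf4, the receptor that binds apoB lipoproteins for export, has 5 probe sets that did not share a direction. The brightest had 2927 in L-Lpcat3 KO and 2455 in Flox/Flox (log2 ratio 0.25). The next in signal had 2649 in L-Lpcat3 KO and 2612 in Flox/Flox (0.02), and a similar one had 2598 in L-Lpcat3 KO and 2549 in Flox/Flox (0.03). Lower still was a probe set with 2173 in L-Lpcat3 KO and 2483 in Flox/Flox (-0.19). The dimmest had 1407 in L-Lpcat3 KO and 1657 in Flox/Flox (-0.24), so that the first probe set was higher in L-Lpcat3 KO and the last 2 were lower. The highest and the second lowest of these ratios come from probe sets designed from the same source sequence. The brightest reading (0.254) lies just above the central 90% of ratios at signals above 1636 (-0.267 to 0.248). The mean of the 5 ratios was -0.03 with an SD of 0.20. These readings share the same pools and are not replicates, so whether Surf4 differs between genotypes cannot be tested with them. Of the 5, 3 end in _x_at, the suffix of probe sets that may capture other transcripts as well.

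Lman1 encodes the lectin that exports coagulation factors V and VIII with Mcfd2. Its brightest probe set had 7599 in L-Lpcat3 KO and 7852 in Flox/Flox (log2 ratio -0.05). The next had 1037 in L-Lpcat3 KO and 1033 in Flox/Flox (0.01). Another had 754 in L-Lpcat3 KO and 795 in Flox/Flox (-0.08). These 3 share 1 source sequence, and their ratios lie from -0.08 to 0.01. A dimmer probe set had 446 in L-Lpcat3 KO and 380 in Flox/Flox (0.23). The dimmest had 131 in L-Lpcat3 KO and 124 in Flox/Flox (0.08), so that Lman1 showed no common direction. Mcfd2, the partner of Lman1, had 10277 in L-Lpcat3 KO and 9523 in Flox/Flox (log2 ratio 0.11).

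Mia3 encodes TANGO1, which holds bulky cargo such as collagen at ER exit sites and, in cultured human cells, takes part in apoB export. Its brightest probe set had 6687 in L-Lpcat3 KO and 7257 in Flox/Flox (log2 ratio -0.12). A second one from the same source sequence had 1813 in L-Lpcat3 KO and 1664 in Flox/Flox (0.12), in the opposite direction. The next had 225 in L-Lpcat3 KO and 208 in Flox/Flox (0.11). The dimmest had 106 in L-Lpcat3 KO and 63.0 in Flox/Flox, below the floor, at least 1.39-fold higher. With a floor at the 25th percentile this probe set alone passed 1.5-fold (log2 ratio 0.75). The related Mia2 was below the floor in both pools (36.3 in L-Lpcat3 KO and 24.4 in Flox/Flox).

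**Figure D3:**
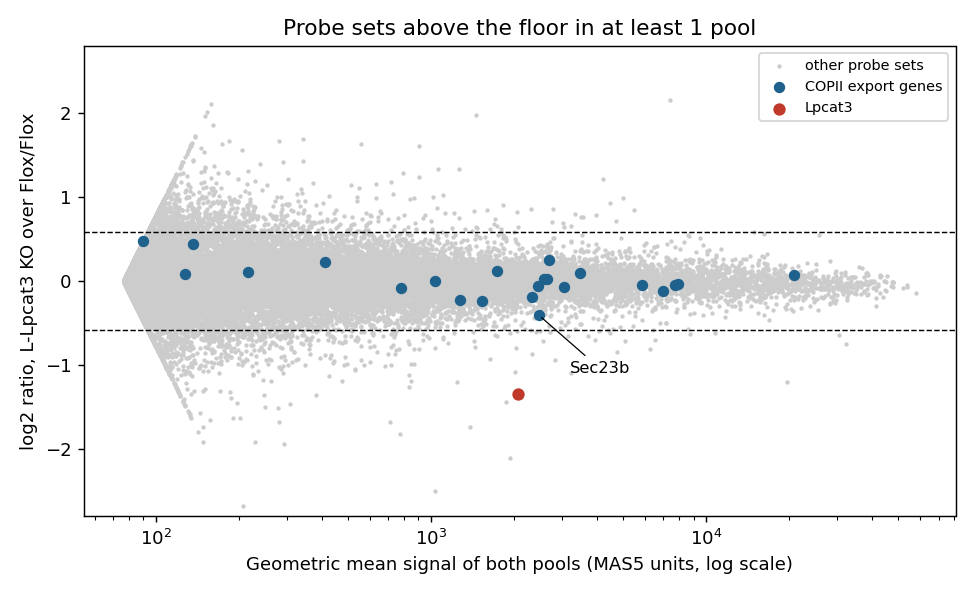
Ratio of the L-Lpcat3 KO signal to the Flox/Flox signal (log2, y axis) plotted over the signal averaged geometrically across the pools (x axis, log scale, MAS5 units) for the 24183 probe sets above the floor in at least 1 pool; grey points are other probe sets, blue points the 23 of the COPII export genes, the red point Lpcat3, and dashed lines mark 1.5-fold. The blue points lie within the cloud, with Sec23b (-0.41) near its lower edge, and Lpcat3 (-1.34) lies below most of it.

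The 3 genes with a UPRE core in the printed windows, Mia3, Sec24d and Sec23a, had brightest log2 ratios of -0.12, 0.09 and -0.05. Of the regulators that act on such elements or on secretory genes, Xbp1 had a log2 ratio of -0.12 (16808 in L-Lpcat3 KO and 18251 in Flox/Flox), with -0.27 to 0.11 over its 4 probe sets. Atf6 had 0.21 by its brightest probe set and -0.60 by its dimmest, Creb3 had -0.22 by its brightest probe set and -0.01 and 0.02 by the next, and Atf6b had 0.29 at a dim signal. The dimmest Creb3 probe set, with 60.4 in L-Lpcat3 KO, below the floor, and 150.0 in Flox/Flox, was at least 1.96-fold lower. The dimmest Atf6 probe set had 156 in L-Lpcat3 KO and 237 in Flox/Flox (1.51-fold lower). By brightest probe set, Creb3l2, which in mouse cartilage activates Sec23a, was the 1 of 6 measured regulators past 1.5-fold. The share past 1.5-fold was 7.22% of all genes measured and 1.48% of bright genes. Creb3l2 had 492 in L-Lpcat3 KO and 770 in Flox/Flox (1.56-fold lower, log2 ratio -0.64). Its other probe set pointed the same way, with 205 in L-Lpcat3 KO and 272 in Flox/Flox (-0.41). The Sec23a signal was nearly equal between the pools beside this difference. Creb3l3 had a log2 ratio of 0.11, and Creb3l1 was below the floor in both pools.

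The rest of the pathway was read from 7 lists of ER export, ER to Golgi fusion, retrieval, VLDL assembly and their regulators. Of their 95 genes 87 were measured, 2 were at least 1.5-fold higher in L-Lpcat3 KO and 2 lower, in all 4.6% against 7.22% of all genes measured, of which 4.05% were higher and 3.17% lower. Of the 82 list genes that are bright in both pools 2 were 1.5-fold apart (2.44%), Kdelr1 and Creb3l2, against 1.48% of all bright genes, so that the share lay below or above its background with the class of genes. Of 12 other COPII and exit site genes, 5 were above 0 and 7 below (49.2% of all genes were below 0), with a median of -0.02. Tecpr2, which in human cells binds SEC24D and sustains exit sites, was the 1 past 1.5-fold, with 378 in L-Lpcat3 KO and 240 in Flox/Flox (1.58-fold higher, log2 ratio 0.66) by its single probe set; its log2 ratio was 0.58 after median centring and 0.56 with a pseudocount, both under 1.5-fold. The exit site scaffold Sec16b had a log2 ratio of 0.09.

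Other export receptors and p24 proteins carry GPI-anchored and soluble cargo between ER and Golgi. Of 16 measured, 7 were above 0 and 9 below, while 49.2% of all genes were below 0. None was past 1.5-fold, against 7.22% of all genes measured and 1.48% of bright genes. By brightest probe set, Tmed4 was the highest (4931 in L-Lpcat3 KO and 3913 in Flox/Flox, log2 ratio 0.33), followed by Ergic1 (0.15). The Tmed5 probe sets ran from -0.25 to 0.49. Tmed3 was the lowest (1064 in L-Lpcat3 KO and 1372 in Flox/Flox, -0.37), followed by Tmed9 (-0.30, and -0.22 in its other probe set).

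By their brightest probe sets, genes of vesicle tethering and fusion lay mostly below 0: 19 of 23 had ratios below 0, and the median was -0.09. None was past 1.5-fold, against 7.22% of all genes measured and 1.48% of bright genes. The same count of 19 was found after quantile normalization and loess, and 21 after median centring. Over all genes 5949 of 12084 had ratios below 0, and 7612 of 12078 after median centring. By brightest probe set Trappc5, a subunit of the TRAPP tether, was the lowest (538 in L-Lpcat3 KO and 677 in Flox/Flox, log2 ratio -0.33). Its other probe set had -0.42. Trappc4 had -0.26, while Trappc3 (0.10) and the Golgi matrix protein Golga2 (0.12) were the highest. Other probe sets went further: those of Gosr2 ran from -0.53 to -0.10, of Bet1l from -0.49 to 0.37 and of Nsf from -0.20 to 0.52.

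COPI carries escaped ER proteins and export receptors back from the Golgi. Of 17 measured COPI and retrieval genes, 5 were above 0 and 12 below (median -0.10), while 49.2% of all genes were below 0. Kdelr1, which retrieves ER chaperones, had 4041 in L-Lpcat3 KO and 2567 in Flox/Flox (1.57-fold higher, log2 ratio 0.65) by its single probe set, and a log2 ratio of 0.58, under 1.5-fold, after median centring. Arfgap3, a GTPase-activating protein of Arf1, had 187 in L-Lpcat3 KO and 356 in Flox/Flox (1.90-fold lower), but its other probe set, with L-Lpcat3 KO at the floor, gave only a bound of at least 1.09-fold lower. The coat subunit Copg2 had a log2 ratio of 0.49 (519 in L-Lpcat3 KO and 370 in Flox/Flox) and its paralog Copg1 of -0.22 by its brightest probe set and 0.00 by its next. Only Arfgap3 and Kdelr1 were past 1.5-fold in this list of 17 genes, against 7.22% of all genes measured and 1.48% of bright genes.

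The cargo was read beside its carriers. Apob, the protein of VLDL, had 18574 in L-Lpcat3 KO and 14908 in Flox/Flox (1.25-fold, log2 ratio 0.32) by its brightest probe set and a log2 ratio of 0.00 by its other. Mttp, which loads apoB with lipid, had 8384 in L-Lpcat3 KO and 7361 in Flox/Flox (0.19, and 0.03 in its other probe set). With real-time PCR on groups of mice, the authors reported unchanged Apob and Mttp mRNA in livers lacking Lpcat3. F8, carried by Lman1, had 529 in L-Lpcat3 KO and 372 in Flox/Flox (log2 ratio 0.51); in liver it is made mainly by endothelial cells, whose markers had a median of 0.22 here, and the part of these cells in the F8 ratio was not tested. F5, also carried by Lman1, had 14180 in L-Lpcat3 KO and 15775 in Flox/Flox (-0.15). By brightest probe set, none of 11 genes of VLDL assembly in the ER was past 1.5-fold, against 7.22% of all genes measured and 1.48% of bright genes. Apob and Mttp were the highest, and Vmp1 (-0.25, and -0.08 in its other probe set) and Tmem41b (-0.15) the lowest. The 3 probe sets of Sort1 ran from 0.02 to 0.45. Vmp1 and Tmem41b are lipid scramblases of the ER membrane. The 6 probe sets of Tmem41b ran from -0.17 to 0.37.

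**Figure D4:**
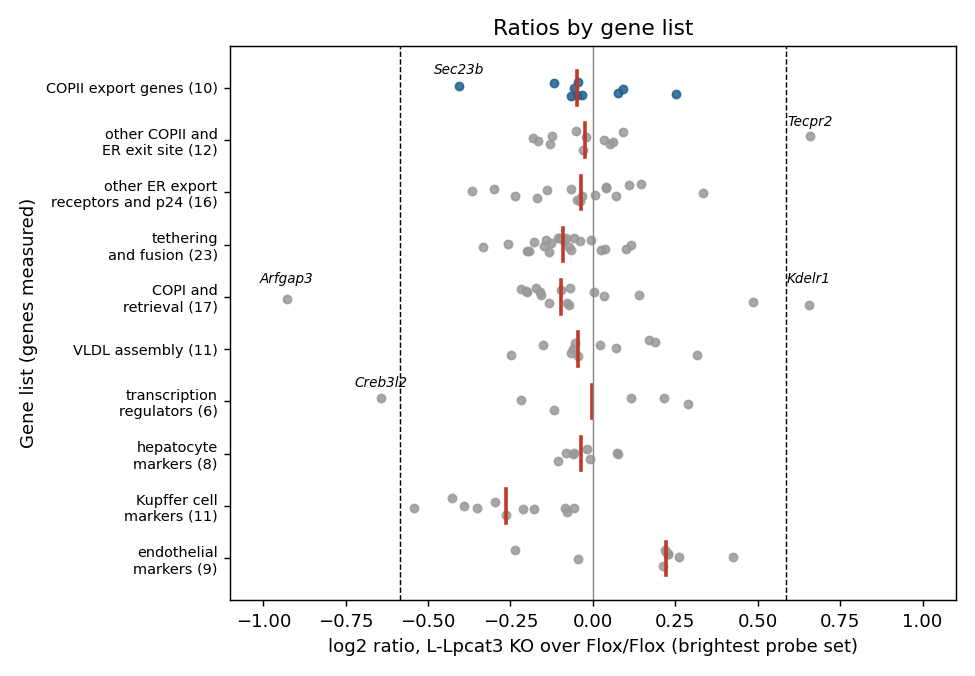
Ratio of the L-Lpcat3 KO signal to the Flox/Flox signal (log2, x axis) of measured genes by their brightest probe set, 1 point per gene, for 10 gene lists (y axis, number of genes measured in parentheses); each red bar is a median, and the dashed lines stand at 1.5-fold. The COPII export genes have a median of -0.05, tethering and fusion genes of -0.09 and Kupffer cell markers of -0.26, and the named points past the lines are Tecpr2, Kdelr1, Arfgap3 and Creb3l2.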

How the data were processed

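RNA pooled from 5 livers per genotype was hybridized by the authors to 1 array each. The deposited values are signal intensities, 1 per probe set, which the submitters' processing notes name as MAS5, with no version stated; GeneSpring GX is named in the methods. The trimmed mean (2% left out at each end) was 500.0 on both arrays. Precision is limited by the 1 array per group, and detection calls were not used here.

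Of 45101 probe sets, 64 were controls (13 of them with a symbol), 34958 had 1 gene symbol, 932 several, and 9160 that are not controls had none here. Symbols came from the platform annotation, updated by gene ID to RefSeq (GRCm38.p6). The files name no genome build, so coordinates are those of the RefSeq promoter windows. Signals below the median (76.4) were set to it, log2 ratios were taken without further scaling, and a gene took the value of its brightest probe set. Ratios of 1.5-fold or more were counted. Members and lists were chosen with earlier results of these data known. Named genes were all members, Lpcat3, Apob, Mttp, the cargo genes, and from each list those 1.5-fold apart with its 2 highest and 2 lowest; others (such as Sec13, Sec24b, Mcfd2 and Xbp1) were added after their values were seen, as partners or regulators of a member. Alternatives covered scaling (median centring, quantile normalization, loess with a span of 0.3), the floor (25th or 75th percentile, none, or a pseudocount of 50) and the gene summary. The scripts were tested on simulated data. Python 3.11.15, numpy 2.4.6, pandas 2.3.3, statsmodels 0.14.6 and matplotlib 3.10.9 were used.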

Additional observations from a re-analysis of the deposited data

How the results depend on the processing

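No paired analysis was possible because each group is 1 pooled array. The count of COPII export probe sets at least 1.5-fold apart, 0 as reported, was 1 with a floor at the 25th percentile of signals and 1 without floor or filter, in both cases the dimmest Mia3 probe set (log2 ratio 0.75). The count of genes was 0 in all 10 alternatives, and the median over the genes lay between -0.13 (median centring) and 0.02 (second brightest probe sets of 5 genes). For the 7 other lists, 4 of 87 genes were 1.5-fold apart as reported, and the count moved both ways, from 2 to 6. It stayed at 4 after quantile normalization and loess. It was 2 using a 75th percentile floor, the mean over probe sets, median centring or the second brightest probe set. It was also 2 without probe sets ending in _s_at, _x_at or _a_at. Fewer genes were tested in 3 of these 5 settings with a count of 2. More genes were tested using a pseudocount (3 of 92), a 25th percentile floor (5 of 90) and neither floor nor filter (6 of 92). Otherwise the cause of these shifts was not tested. Of 157 alternative values of member probe sets, 2 moved by more than 0.18, the SD within genes, both of the dimmest Mia3 probe set. Among all probe sets 1.5-fold apart, 56.4% were higher in L-Lpcat3 KO as deposited, 41.0% after median centring, 50.6% after quantile normalization and 49.8% after loess. Single pools limit every value, and the spread among mice is unknown. In the 17 repeated readings of 5 genes the SD within a gene was 0.18 and the median range 0.31. The SD is no limit of the spread of probe sets: those of Surf4 lay up to 0.49 apart.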
